A study of Mus musculus with 6 samples.

Results

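The 38 genes described here belong to the germline: they take part in the piRNA pathway, in the pairing and recombination of meiotic chromosomes, or in the specification and differentiation of germ cells. They were chosen by gene symbol, as germ cell genes of a kind that promoter methylation keeps low outside the germline, and all 38 were found among the 22602 genes of the deposited table. Methylation was not measured here, and some members, such as Tex19.1 and Mov10, were well expressed in these cells. The list was built around Fkbp6, whose fall in these cells was already known, and the question was whether the other members followed it. By the limma test Dazl fell as well, and the other tested members did not pass, although most of them were lower in the clones. No member passed as higher. Of all tested genes 0.354% passed as lower and 0.345% as higher. The calls of Fkbp6 and Dazl were each lost in most of the fits that left out a library. A second test, limma-voom, called no member, Fkbp6 included.

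The 6 mRNA libraries were made from cultured mouse embryonic stem (ES) cells, grown on gelatin with serum and leukemia inhibitory factor. The Sim2 group holds 1 library each of clones A6, B8 and C4, which have a transgene in ROSA26, a mouse Sim2 coding sequence with a Flag tag, driven by a tetracycline-regulated promoter that is active when the drug is withdrawn. The 3 EB3 libraries (numbered 0, 1 and 2) came from EBRTcH3, the parental line, which lacks the Sim2 transgene. All 6 cultures, controls included, had been without tetracycline for 26 h, and all lines share the inducible system with its Venus reporter. Each clone gave 1 culture, so clone and replicate cannot be told apart, and the EB3 libraries are cultures of a single line. P-values therefore measure the spread between these cultures, which for EB3 holds no differences between clones.

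Germ cells keep their genome intact with the piRNA pathway, in which PIWI proteins loaded with small RNAs silence transposons, helped by Tudor domain proteins that gather in cytoplasmic granules. In meiosis, cohesins and the synaptonemal complex hold homologous chromosomes together while recombination proteins break and repair their DNA. In ES cells many of these genes are kept low through their CpG-rich promoters, by DNA methylation and by a Polycomb complex that holds E2F6 and the MGA-MAX pair, which binds the E-box CACGTG. SIM2 is a bHLH-PAS transcription factor that pairs with ARNT, and dimers of this class recognise the core ACGTG.

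The promoters of the 4 members with the smallest adjusted p-values are shown first, since the letters of both motifs can be read in them. Sequences are those of RefSeq on GRCm38.p6, a later build than the mm9 of the expression table. Each runs 5′ to 3′ on the coding strand over the 250 bases before the gene's first listed start, with matches to ACGTG on either strand, CACGTG included, in capitals. Fkbp6 (chr5:135350045-135350294, minus strand) holds 2 E-boxes, whose first bases lie 101 and 37 bases before the start. Dazl (chr17:50293621-50293870, minus strand) holds no E-box but 2 cores, at 93 and 36 bases. Syce1 (chr7:140787855-140788104, minus strand) holds 1 core at 135 bases, and Stk31 (chr6:49395289-49395538, plus strand) holds 1 E-box at 55 bases.
Fkbp6: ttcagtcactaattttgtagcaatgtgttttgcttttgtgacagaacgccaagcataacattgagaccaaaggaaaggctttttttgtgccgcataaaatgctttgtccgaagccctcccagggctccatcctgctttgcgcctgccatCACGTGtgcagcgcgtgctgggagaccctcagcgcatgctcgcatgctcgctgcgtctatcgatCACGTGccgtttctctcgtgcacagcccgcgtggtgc
Dazl: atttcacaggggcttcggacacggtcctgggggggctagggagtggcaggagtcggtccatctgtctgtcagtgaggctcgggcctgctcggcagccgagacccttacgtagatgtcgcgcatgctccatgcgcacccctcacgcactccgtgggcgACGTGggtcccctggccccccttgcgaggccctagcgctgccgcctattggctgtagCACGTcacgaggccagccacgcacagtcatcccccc
Syce1: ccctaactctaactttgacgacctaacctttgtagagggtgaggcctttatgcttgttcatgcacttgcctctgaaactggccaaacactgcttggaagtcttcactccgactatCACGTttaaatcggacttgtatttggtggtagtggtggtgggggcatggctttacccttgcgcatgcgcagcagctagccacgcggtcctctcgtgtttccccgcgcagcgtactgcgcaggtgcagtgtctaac
Stk31: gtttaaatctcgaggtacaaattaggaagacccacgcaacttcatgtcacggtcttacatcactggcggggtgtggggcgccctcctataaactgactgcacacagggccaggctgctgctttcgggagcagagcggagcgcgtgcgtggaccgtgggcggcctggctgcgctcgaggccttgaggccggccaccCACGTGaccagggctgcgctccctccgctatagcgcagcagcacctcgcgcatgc
These windows hold 17, 20, 13 and 21 CpG dinucleotides respectively, against a median of 6 over all promoters and of 16 over those of tested genes, as all of these are.

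The libraries held between 25095861 and 28269340 reads, so that 1 read in a cDNA of 2000 bases was worth 0.0177 to 0.0199 RPKM (reads scaled to cDNA length and to library size). The transgene matched the labels: Sim2 stood at 196, 212 and 168 RPKM in A6, B8 and C4 and at 0.130, 0.0917 and 0.104 RPKM in EB3-0, EB3-1 and EB3-2. EB3-1 and EB3-2 lay closer to each other (median absolute log2 difference of 0.06 over tested genes) than either lay to EB3-0 (0.25 in both pairs), while the clones differed from each other by 0.11 to 0.20. Without EB3-0, 694 tested genes were called (5.99%), against 6 without EB3-1 or without EB3-2. The labelled cell type matched its markers: 8 of 8 ES cell markers were tested, with Pou5f1 between 1502 and 1961 RPKM and Nanog between 335 and 419 RPKM, and 0 of them were called by limma or limma-voom (1 had an unadjusted limma p under 0.05). In bulk RNA, fewer cells that express a gene and less RNA per cell cannot be told apart.

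In what follows the values of a gene are given in the order A6, B8, C4 and then EB3-0, EB3-1, EB3-2. Of the 38 members, 19 had a mean of at least 1 RPKM and were tested with limma on log2(RPKM + 0.5), together with 11595 genes in all, and an adjusted p under 0.05 (Benjamini-Hochberg over these genes) is named a call. A log2 fold change is the mean of the clones minus the mean of EB3 on that scale, which understates the change of low genes, and is given with its standard error. With 3 libraries against 3, the exact permutation test of 1 gene cannot give a 2-sided p under 0.1.

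Among the tested members 2 of 19 were called lower (10.5%), where 0.354% of all tested genes were, and without Fkbp6, around which the list was built, 1 of 18 was. No member was called higher, where 0.345% of all tested genes were, and 0 members had an unadjusted limma p under 0.05 in that direction (8.4% of tested genes had one). At an unadjusted p under 0.05, 8 members were lower (42.1%), against 9.36% of tested genes. The log2 fold change was below 0 for 15 of 19 members (78.9%), against 50.9% of tested genes, and its median was -0.45 over the members and -0.01 over all tested genes. Without Fkbp6, 7 of 18 members were lower at an unadjusted limma p under 0.05 (38.9%). Of these 18, 14 were below 0 (77.8%), with a median of -0.39. Leaving out any library kept 14 or 15 of the 19 below 0. Limma-voom on the recovered reads, a method added after the data were seen, called 0 of 34 members, with 51 genes called in all and adjusted p-values of 0.0502 for Dazl and 0.0554 for Fkbp6.

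**Figure D1:**
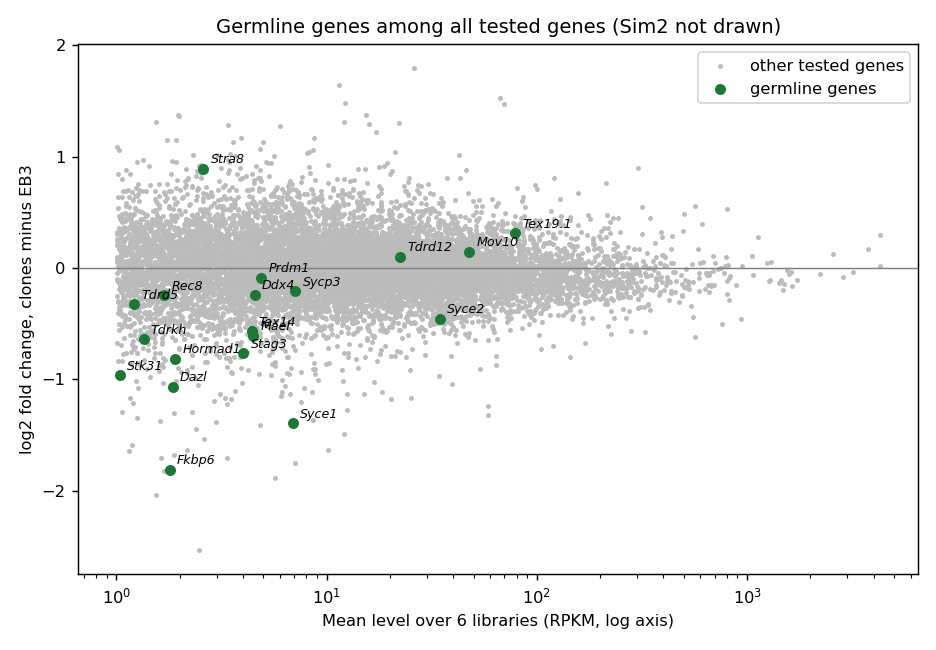
Each point is a tested gene, with its mean level over the 6 libraries (RPKM, log axis) across and its log2 fold change (clones minus EB3, of RPKM + 0.5) upward, with the germline genes in green and Sim2 itself left out. Of the 19 germline genes 15 lie below 0, and the lowest of them is Fkbp6 at -1.81.

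Most of the tested members had low levels, and those with a mean above 10 RPKM were Tdrd12, Mov10, Tex19.1 and Syce2. Of these only Syce2 was below 0, so a cut at 10 RPKM leaves out most members with a positive fold change. Of the 15 members with a mean under 10 RPKM, 14 were below 0 (93.3%) with a median of -0.61, whereas the 5043 tested genes with means under 10 RPKM were below 0 in 47.1% of cases with a median of 0.02. The filter on low values bears on these counts: Fkbp6, Stk31 and Tdrkh had a mean of at least 1 RPKM in EB3 and under 1 RPKM in the clones, and no tested member had the opposite. A gene that passes in this way had to be lower in the clones, so Fkbp6, Stk31 and Tdrkh were bound to be among the 14. Fkbp6 was also picked for its fall. Of the 16 tested members with both group means at or above 1 RPKM, 1 was called (0.308% of the 11351 such genes were called lower). Of these 16, 12 were below 0 (75.0%, against 50.9% of such genes), with a median of -0.28. At an unadjusted limma p under 0.05, 6 of them were lower, against 9.36% of all tested genes. That share was not counted over the 11351 genes alone.

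Of the 15 members of the piRNA pathway and its cytoplasmic granules 8 were tested, and 6 of these had a log2 fold change below 0 (median -0.47). Among all tested genes 50.9% were below 0 and 0.354% were called lower. The 6 include Fkbp6, Stk31 and Tdrkh, which passed the filter through EB3 alone and so had to be lower. Only 1 member of this group was called. This was Fkbp6 (chr5:135767574-135825861 in mm9), an FK506-binding protein that works with HSP90 in the loading of piRNAs. Fkbp6 stood at 0.915, 0.334 and 0.330 RPKM in the clones and at 4.07, 2.31 and 2.80 RPKM in EB3, from 32, 12 and 13 reads against 155, 86 and 102. Every clone lay below every EB3 culture, with means of 0.526 ± 0.336 and 3.06 ± 0.911 RPKM (SD, n = 3 each). Its log2 fold change was -1.81 ± 0.27 with a limma adjusted p of 0.0367, which describes the fall for which the gene was picked. The call was lost without B8 (limma adjusted p = 0.105), C4 (0.119), EB3-1 (0.109) or EB3-2 (0.127) and kept without A6 or EB3-0, with log2 fold changes of -2.07 to -1.62.

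Stk31 (chr6:49345603-49419501), a kinase with a Tudor domain found in germ cells, stood at 0.738, 0.288 and 0.634 RPKM against 1.73, 1.59 and 1.25 RPKM. Tdrkh (chr3:94217240-94235421), a mitochondrial Tudor protein needed for the trimming of piRNA precursors, stood at 1.32, 0.337 and 1.31 RPKM against 2.05, 1.44 and 1.62 RPKM. In both genes the groups did not overlap and B8 was the lowest library. The log2 fold change of Stk31 was -0.96 ± 0.22, with a limma adjusted p of 0.0904 that missed the threshold. For Tdrkh it was -0.64 ± 0.31 with a limma adjusted p of 0.330, and -0.27 without B8.

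Mael (chr1:168131516-168168875), the Maelstrom protein of transposon silencing, stood at 5.83, 2.11 and 2.81 RPKM against 6.52, 4.50 and 5.03 RPKM. A6 lay inside the EB3 range while B8 and C4 lay below it, and the log2 fold change of -0.61 ± 0.31 did not pass (limma adjusted p = 0.353). It was -0.98 without A6 and -0.34 without B8. Ddx4 (chr13:113388541-113442518), the Vasa RNA helicase of germ granules, stood at 5.36, 2.98 and 4.20 RPKM against 4.14, 5.42 and 5.22 RPKM, and Tdrd5 (chr1:158185426-158233479), a Tudor protein of the chromatoid body, at 1.20, 1.05 and 0.811 RPKM against 1.19, 1.31 and 1.70 RPKM. The groups overlapped in both, with log2 fold changes of -0.24 ± 0.21 and -0.32 ± 0.19 (limma adjusted p = 0.599 and 0.419). That of Ddx4 was -0.42 without A6 and -0.04 without B8, and that of Tdrd5 was -0.21 without EB3-2.

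The remaining tested members of this pathway, Tdrd12 and Mov10, were expressed at the highest levels of the group and had positive fold changes that did not pass. Tdrd12 (chr7:36278629-36322763), a Tudor helicase of secondary piRNA production, stood at 14.5, 40.4 and 17.7 RPKM against 19.3, 22.9 and 19.07 RPKM. B8 alone lay above EB3, A6 and C4 lay below it, and the log2 fold change of 0.10 ± 0.33 (limma adjusted p = 0.905) became -0.34 without B8 and 0.39 without A6. Mov10 (chr3:104597750-104621481), an RNA helicase also used outside the germline, stood at 45.3, 55.4 and 49.7 RPKM against 45.4, 44.9 and 44.9 RPKM, with a log2 fold change of 0.15 ± 0.10 (limma adjusted p = 0.468) and of 0.07 without B8. Mov10 has a stretch of 2650 bases that is 93.9% identical to a copy on chr1, so its value is uncertain where reads were shared.

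Of the 14 members that act on meiotic chromosomes, 6 were tested and none was called. All 6 had a log2 fold change below 0 (median -0.61), where 50.9% of tested genes had one. By unadjusted limma p 4 of the 6 were under 0.05: Syce1, Syce2, Stag3 and Hormad1, and in each of these every clone lay below every EB3 culture. Among all tested genes 9.36% were lower at that p and 13.4% were lower without overlap. Limma-voom called 0 of the 13 members of this group that it tested.

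Syce1 (chr7:147963128-147973753), a protein of the central element of the synaptonemal complex, stood at 5.34, 1.99 and 3.80 RPKM in the clones and at 12.6, 8.54 and 9.12 RPKM in EB3. The means were 3.71 ± 1.68 and 10.1 ± 2.17 RPKM (SD, n = 3 each), and the log2 fold change was -1.39 ± 0.30 with a limma adjusted p of 0.0803. Syce1 was called once a trend with cDNA length had been removed (-1.34, limma adjusted p = 0.047), a setting under which 2.05% of tested genes were called. Its partner in the central element, Syce2 (chr8:87396157-87411345), was the most abundant meiotic member, at 33.9, 25.1 and 28.0 RPKM against 45.4, 36.6 and 37.6 RPKM. The log2 fold change of Syce2 was -0.45 ± 0.14 (limma adjusted p = 0.148). Syce2 overlaps Gcdh on the other strand, where counting without strand cannot separate them, and Gcdh had a log2 fold change of -0.11 ± 0.12 (limma adjusted p = 0.685).

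Stag3 (chr5:138721737-138753621), a cohesin subunit used in meiosis, stood at 4.18, 2.23 and 2.30 RPKM against 4.32, 6.03 and 5.06 RPKM. The highest clone, A6, came close to the lowest EB3 culture, and the log2 fold change was -0.76 ± 0.23 (limma adjusted p = 0.154). Hormad1 (chr3:95363599-95391593), which marks unsynapsed chromosome axes, stood at 1.85, 0.668 and 1.31 RPKM against 2.01, 3.14 and 2.43 RPKM, with a log2 fold change of -0.81 ± 0.27 (limma adjusted p = 0.180) that was -0.54 without B8. Hormad1 shares 1177 bases at 91.4% identity with a copy on chr15, among 5 such stretches in the genome, and its reads are uncertain for that reason.

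Rec8 and Sycp3 had groups that overlapped. Rec8 (chr14:56237003-56244232), the meiotic kleisin of cohesin, stood at 2.40, 0.585 and 1.74 RPKM against 2.39, 1.53 and 1.49 RPKM. B8 alone was below EB3, and the log2 fold change of -0.24 ± 0.35 (limma adjusted p = 0.764) became 0.17 without it and -0.54 without A6. Sycp3 (chr10:87922332-87935981), of the lateral element, stood at 7.21, 7.33 and 5.20 RPKM against 7.67, 8.20 and 6.97 RPKM, with a log2 fold change of -0.21 ± 0.16 (limma adjusted p = 0.538) that was -0.06 without C4 and 0.21 with length and GC trends removed.

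Of the 9 germ cell regulators and other germline members 5 were tested, and 3 of these had a log2 fold change below 0 (median -0.09). Among all tested genes 50.9% were below 0 and 0.354% were called lower. Only 1 member of this group was called. This was Dazl (chr17:50418719-50432924), an RNA-binding protein that licenses germ cells for gamete development. Dazl stood at 1.002, 1.003 and 1.022 RPKM in the clones and at 2.19, 2.66 and 3.22 RPKM in EB3, from 74, 76 and 85 reads against 176, 209 and 247. The clones were nearly alike and all lay below EB3, with means of 1.01 ± 0.0113 and 2.69 ± 0.513 RPKM (SD, n = 3 each). Dazl fell by 1.07 ± 0.17 on the log2 scale (limma adjusted p = 0.0418, exact permutation p = 0.1). The call was kept without EB3-0 (limma adjusted p = 0.0208) and lost without A6 (0.135), B8 (0.105), C4 (0.127), EB3-1 (0.216) or EB3-2 (0.230), while the log2 fold change stayed between -1.18 and -0.95. With trends on cDNA length and GC content removed it was -0.70 and was not called (limma adjusted p = 0.0689).

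Tex14 (chr11:87241093-87369325), needed for the bridges between germ cells, stood at 4.38, 2.17 and 3.99 RPKM against 4.61, 5.44 and 5.76 RPKM. Its groups did not overlap, and the log2 fold change was -0.57 ± 0.23 (limma adjusted p = 0.261), or -0.30 without B8. Stra8 (chr6:34870960-34889342), the retinoic acid target that starts meiosis, had a higher mean in the clones, at 3.92, 2.83 and 3.21 RPKM against 3.73, 0.797 and 1.05 RPKM. EB3-0 stood at the level of the clones and the other EB3 cultures far below. The log2 fold change of Stra8 was 0.89 ± 0.40 (limma adjusted p = 0.297), and without EB3-0 it was 1.42 with a limma adjusted p of 0.0197, while without EB3-1 it was 0.57.

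Prdm1 (chr10:44156981-44178493), the repressor that specifies primordial germ cells, stood at 3.81, 5.80 and 4.59 RPKM against 4.59, 5.44 and 4.99 RPKM, with a log2 fold change of -0.09 ± 0.17 (limma adjusted p = 0.824) that was 0.043 without A6 and -0.23 without B8. Tex19.1 (chr11:121007457-121009627), which restrains transposons in germ cells and is also active in ES cells, was the most abundant of the 38 members. It stood at 86.8, 123 and 56.0 RPKM against 89.9, 57.1 and 60.4 RPKM, with B8 highest and the groups overlapping, and its log2 fold change was 0.31 ± 0.28 (limma adjusted p = 0.604), or 0.04 without B8 and 0.61 without C4. Tex19.1 shares 240 bases at 90.4% identity with another place on chr11.

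**Figure D2:**
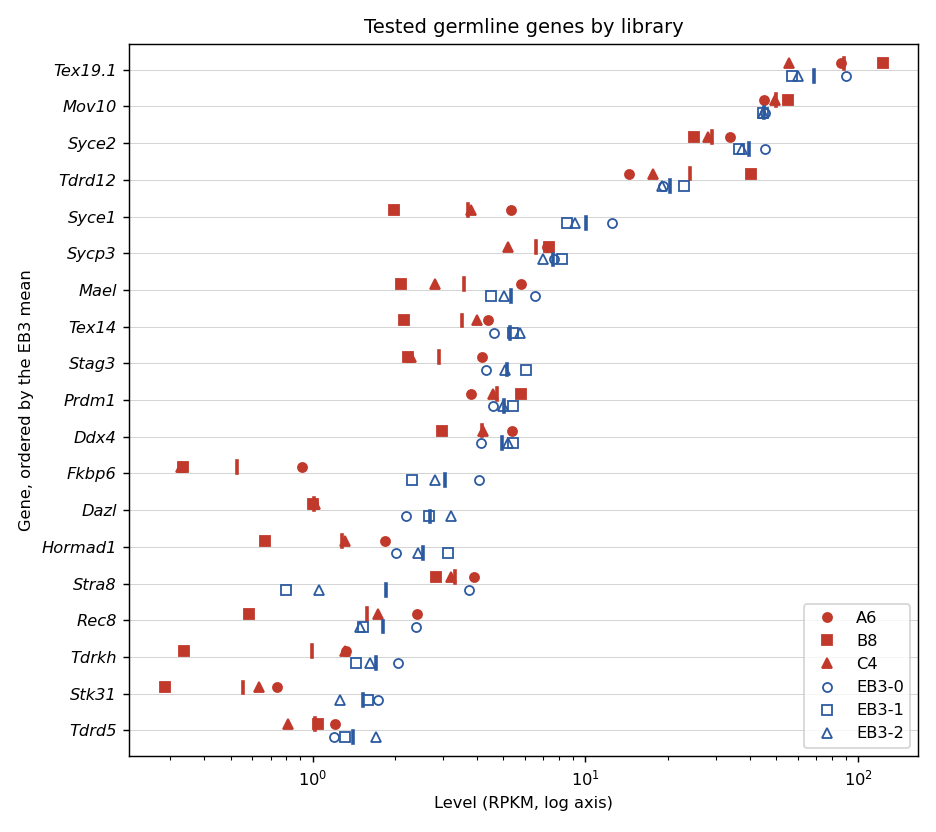
Level of each of the 19 tested germline genes in every library (RPKM, log axis), with filled symbols for the clones, open symbols for the EB3 cultures and a short line at each group's mean. In 9 genes, Fkbp6, Tdrkh, Stk31, Syce1, Syce2, Stag3, Hormad1, Dazl and Tex14, all filled symbols lie left of all open ones, and in no gene do they lie right.

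Every clone lay below every EB3 culture for 9 of the 19 tested members (47.4%), against 13.4% of tested genes. These 9 include Fkbp6, Stk31 and Tdrkh, which passed the filter through EB3 alone, and among the 16 members with both group means at or above 1 RPKM the count was 6 (37.5%), against 13.1% of such genes. The opposite order was found for 0 members, against 12.7% of tested genes. The count of 9 became 9 to 11 when any library was left out, while the share of all tested genes moved between 15.8% and 26.6%, the highest being without EB3-0. The opposite order was then found for 1 member without A6, for 2 without EB3-0 and for 0 without any other library. With EB3-1 and EB3-2 averaged into 1 library the count of lower members was 10, against 15.8% of tested genes.

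The members lay at different distances from EB3 in the 3 clones, for which no test is possible with 1 culture each. Against the EB3 mean, the clones A6, B8 and C4 had median log2 differences over the 19 members of -0.24, -1.03 and -0.49, and 13, 14 and 17 members below 0. Over all tested genes these medians were 0.01, -0.01 and -0.02. B8 was the lowest clone for 11 of 19 members (57.9%), where it was lowest for 40.3% of tested genes. Among the EB3 cultures, the median difference of the members from the other EB3 cultures was 0.02 for EB3-0, -0.01 for EB3-1 and -0.10 for EB3-2, with 8, 11 and 15 of the 19 members below 0. Over all tested genes the medians of these EB3 cultures were -0.0007, 0.009 and 0.004. The 15 of EB3-2 equals the count of members below 0 in the fit of the clones against EB3, where the median was -0.45. It sets 1 culture against the other EB3 cultures, so the counts are not alike. Shares of all tested genes below 0 were not counted for single libraries, and the cause was not tested.

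**Figure D3:**
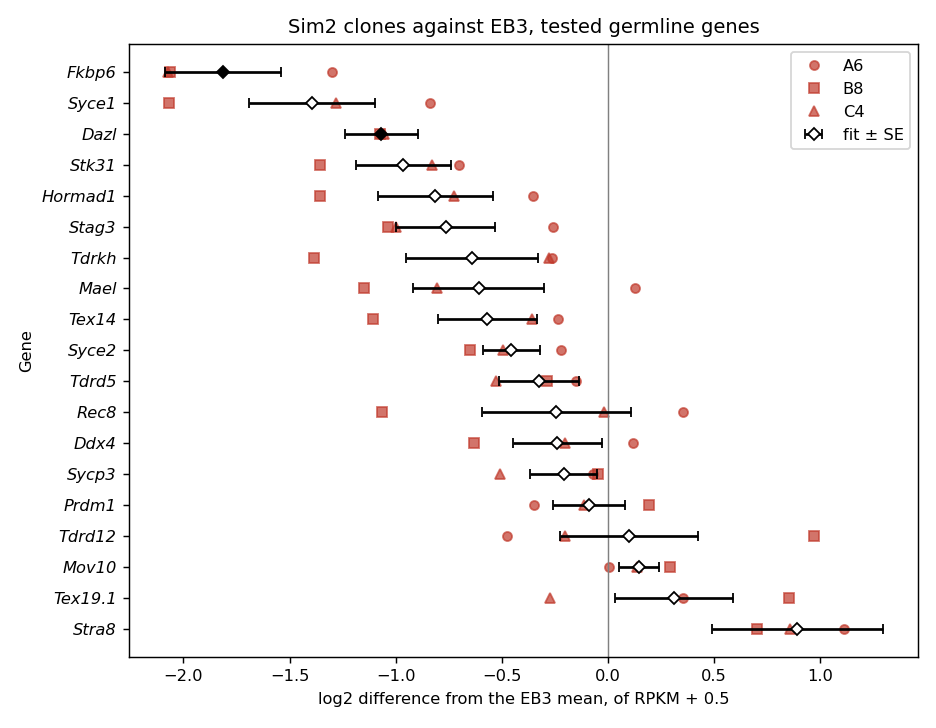
Log2 difference from the EB3 mean (of RPKM + 0.5) for the 19 tested germline genes, with each clone as a coloured symbol and the fitted log2 fold change with its standard error as a diamond, filled where limma's adjusted p was under 0.05. The filled diamonds are Fkbp6 at -1.81 and Dazl at -1.07, and B8 is the lowest clone in 11 of the genes, including Syce1, Stk31, Hormad1 and Rec8.

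The other 19 members had means under 1 RPKM and were not tested, and the highest value of any of them was 1.20 RPKM, in Tex101. Their group mean was lower in the clones for 14 of 19, which brings the count over the whole list to 29 of 38 (76.3%). Every clone lay below every EB3 culture for Asz1, Piwil1, Sycp2 and Tex101, 4 of 19, against 8.02% of the 6368 untested genes with a read in any library. Piwil4 alone had the opposite order, against 5.48% of those genes. Over all 38 members, 13 (34.2%) were lower in every clone and 1 (2.63%) was higher, against 11.5% and 10.2% of the 17963 genes with a read in any library. All 38 members had a read, so this count does not depend on the filter. It does include Fkbp6, which was picked for its fall, and Asz1, with 0 reads in the clones and 2, 4 and 3 in EB3.

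Tex101, a surface protein of sperm precursors, stood at 0.340, 0.147 and 0.336 RPKM against 0.765, 0.568 and 1.20 RPKM, from 9, 4 and 10 reads against 22, 16 and 33. Limma-voom gave it a log2 fold change of -1.57 with an adjusted p of 0.174. Piwil1, the PIWI protein of pachytene piRNAs, had 7, 5 and 13 reads against 24, 18 and 29, a limma-voom log2 fold change of -1.50 with an adjusted p of 0.161. Both genes were lower in every clone, on 33 reads or fewer in a library.

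Piwil4, the PIWI protein that guides methylation of transposons in fetal germ cells, had the highest mean of the untested members. It stood at 1.10, 0.809 and 0.859 RPKM against 0.445, 0.695 and 0.683 RPKM, with means of 0.924 ± 0.157 and 0.607 ± 0.141 RPKM (SD, n = 3 each). Limma-voom gave a log2 fold change of 0.61 with an adjusted p of 0.328, so that the only member above EB3 in every clone did not pass.

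Taf7l, a testis form of a TFIID subunit, stood at 0.741, 0.341 and 0.530 RPKM against 1.04, 0.715 and 1.09 RPKM. Hormad2, the partner of Hormad1 on chromosome axes, stood at 0.801, 0.144 and 0.342 RPKM against 0.955, 0.668 and 0.856 RPKM. Slc25a31, a germline carrier of ADP and ATP across the mitochondrial membrane, stood at 0.642, 0.294 and 0.469 RPKM against 1.08, 0.673 and 0.563 RPKM. In all of these genes A6 reached into the EB3 range, B8 was lowest, and limma-voom gave adjusted p-values between 0.283 and 0.399.

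The lowest of the remaining members were read by a few fragments only. Spo11, which makes the meiotic DNA breaks, had 0 reads in every library but EB3-1, with 2 reads there. Asz1, a scaffold of germ granules at mitochondria, had 0 reads in the clones and 2, 4 and 3 in EB3, too few for a fold change, since 3 counts is the limit that a count of 0 allows. The Tudor genes Tdrd6 and Tdrd9 did not exceed 0.0807 RPKM in any library, and Tdrd9 overlaps another listed gene on the other strand that had no reads. Sycp2, of the lateral element, stayed between 0.0409 and 0.138 RPKM.

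Others were low but well covered for their level: Tdrd1 had 59 to 83 reads in a library (0.441 to 0.613 RPKM) and Tex15 57 to 151. Tdrd7, another Tudor protein of germ granules, lay between 0.125 and 0.327 RPKM. Sycp1, the transverse filament of the synaptonemal complex, lay between 0.245 and 0.669 RPKM, and 2885 bases of it are 92.0% identical to a copy on chr7. The crossover proteins Msh4 and Msh5 lay between 0.231 and 0.507 and between 0.0801 and 0.248 RPKM, and the recombination genes Tex11 and Tex15 between 0.185 and 0.834 and between 0.263 and 0.672 RPKM. Brdt, a bromodomain protein of spermatids, lay between 0.0732 and 0.167 RPKM. In none of these were the groups separate.

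**Figure D4:**
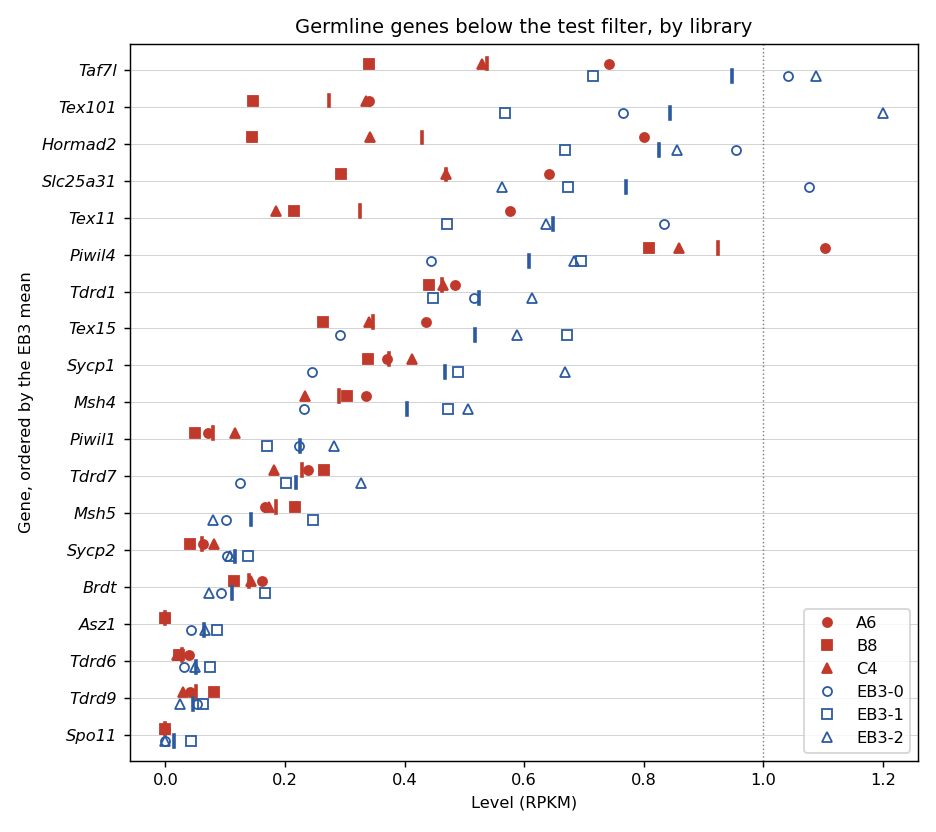
Level of each of the 19 untested germline genes in every library (RPKM, linear axis), with filled symbols for the clones, open symbols for EB3, short lines at group means and a dotted line at 1 RPKM. The filled symbols lie left of the open ones for Asz1, Piwil1, Sycp2 and Tex101 and right of them for Piwil4.

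Promoters were found in RefSeq for 34 of the 38 members, with 45 starts, and for 27025 genes in all. The 250 bases before each start were searched on both strands for 3 motifs: the E-box CACGTG, the core ACGTG that it contains, and the E2F-type site TCCCGC. The E-box was present at 15 of 34 members (44.1%), against 6.86% of all genes, 10.4% of the tested genes of the table that had a promoter, and 10.2% of genes with CpG-rich starts (an observed to expected CpG ratio of at least 0.6). Among members with such starts it was present at 13 of 24 (54.2%). Before the first listed start of Fkbp6, Hormad1, Sycp3, Piwil1 and Tdrd9 it occurred 2 times.

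The core ACGTG was present at 22 members (64.7%), against 18.5% of all genes, 26.0% of tested genes and 26.6% of genes with CpG-rich starts. Counted outside an E-box, it was present at 9 members (26.5%), against 12.8%, 17.6% and 18.5% of these sets. The E2F-type site was present at 10 members (29.4%), against 18.8% of all genes, 35.9% of tested genes and 39.3% of genes with CpG-rich starts. The members' promoters held a median of 15 CpG dinucleotides with a median observed to expected ratio of 0.671, against 6 and 0.373 over all promoters and 16 and 0.731 over those of tested genes.

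The E-box was present at 6 of the 13 members that were lower in every clone (46.2%) and at 9 of the 21 others (42.9%). Fkbp6 had it and Dazl did not, as their printed sequences show.

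**Figure D5:**
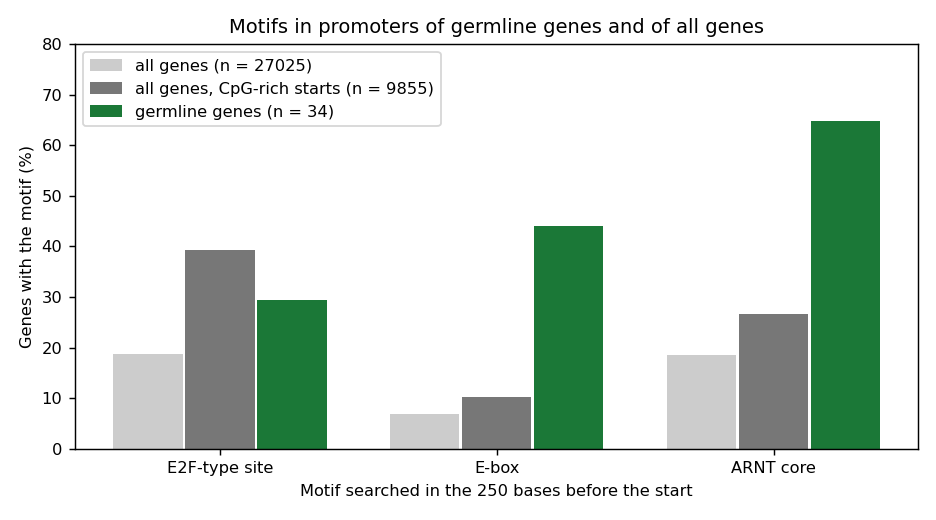
Share of genes (%, axis from 0) with each motif in the 250 bases before a start, as bars for the germline genes and for all genes and all genes with CpG-rich starts. The E-box bar of the germline genes stands at 44.1%, against 6.86% of all genes, and their E2F-type bar at 29.4%.

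Another list, of 43 germline genes that are not members, gave the wider pathway. Of the 39 listed genes among them, 23 were tested, 18 of them had a log2 fold change below 0 (78.3%) with a median of -0.23, and 0 were called by limma or by limma-voom. By unadjusted limma p 5 were lower and 1 was higher, where 9.36% and 8.4% of all tested genes were. Their median log2 differences from the EB3 mean were 0.01, -0.49 and -0.18 in A6, B8 and C4, and B8 was the lowest clone for 15 of 23. Sohlh2, a bHLH factor of early germ cell differentiation chosen here after its values were seen, stood at 3.94, 1.34 and 2.31 RPKM against 9.02, 6.47 and 5.96 RPKM, with a log2 fold change of -1.41 ± 0.31 (limma adjusted p = 0.0847).

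The proteins known to keep germline genes low were themselves expressed. Of 26 such genes (DNA methyltransferases, TET enzymes, the E2F6 and MGA complex and other repressors) 25 were tested and 0 were called by limma or limma-voom, with log2 fold changes between -0.65 and 0.29 and a median of -0.06. By unadjusted limma p 5 were lower and 2 higher, where 9.36% and 8.4% of all tested genes were. Every clone lay below every EB3 culture for 8 of the 25 and above for 5, against 13.4% and 12.7% of tested genes. The smallest adjusted p was that of Dnmt3l, the cofactor of de novo methylation, also named after its values were seen. Dnmt3l stood at 236, 190 and 257 RPKM against 334, 327 and 342 RPKM, with a log2 fold change of -0.56 ± 0.12 (limma adjusted p = 0.0818). Its part in the members' levels was not tested.

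Markers of other cell states were read beside the members. The 4 listed two-cell-like markers, which mark a rare state of ES cultures, summed to 2.84, 0.231 and 0.349 RPKM against 6.84, 5.14 and 4.80 RPKM. Zscan4d, the highest of them in EB3 and named after its values were seen, had a log2 fold change of -1.82 ± 0.41 (limma adjusted p = 0.0847). By limma or limma-voom 0 of the 2 tested markers were called, both having an unadjusted limma p under 0.05. Both had a mean of at least 1 RPKM in EB3 and under 1 RPKM in the clones. They passed the filter through EB3 alone and so had to be lower. The clones with lower sums, B8 and C4, were also those with the lower medians of the members, and the part of these cells in the result was not tested.

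The 6 listed primordial germ cell markers, of which Prdm1 is also a member, were all tested, 4 were below 0 with a median of -0.15, and they summed to 55.9 to 68.9 RPKM in the clones and 62.5 to 80.3 RPKM in EB3. The primitive endoderm markers summed to 3.74 to 4.46 RPKM against 2.46 to 2.75 RPKM, with 1 of 6 tested. Trophoblast markers summed to 2.70 to 4.75 RPKM against 2.13 to 2.34 RPKM. Of the fibroblast markers, Col1a1, Col1a2, Col3a1, Dcn and Postn stayed at or below 0.165 RPKM, and only Thy1, which ES cells also express, was tested. None of the markers in these 4 lists was called by limma or limma-voom, and by unadjusted limma p 2 were higher. Every clone lay above every EB3 culture for 3 of the 5 untested primitive endoderm markers. Of the 4 untested trophoblast markers 2 lay above in this way and 1 below. Among untested genes with a read in any library, 5.48% lay above and 8.02% below.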

How the data were processed

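Messenger RNA libraries of 3 Sim2 clones and 3 EB3 cultures were grouped by the sample labels. The authors mapped paired reads to mm9 with BWA, computed exon coverage per gene with their own pipeline and deposited it as RPKM. Versions, strand use and the treatment of reads with several positions are not given in the sources used here. The authors tested differences with edgeR, which was not run here.

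RPKM times cDNA length gave whole reads for 100% of values (tolerance 0.001), from which depth was taken. Genes with a mean of at least 1 RPKM over the 6 libraries were tested with limma 3.58.1 (R 4.3.3, lmFit and eBayes with trend) on log2(RPKM + 0.5), with no covariate and with Benjamini-Hochberg adjustment over all 11595 genes. The script was tested on simulated data. All p-values are 2-sided, and counts of reads cover counting error only.

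Fkbp6 and every tested member were given in full, with the 5 untested members of highest mean. Piwil1, which is not among these 5, was given a fold change outside this rule, with its values known. Genes of other lists were to be named only if called, and none was. Those named (Sohlh2, Dnmt3l, Zscan4d, Gcdh and the markers Pou5f1, Nanog, Thy1 and the collagen and fibroblast genes) were chosen after their values were seen. Members, lists and motifs were chosen with earlier results of these data known. Members were compared with copies elsewhere in mm9 over at least 200 bases at 90% identity, except Tdrd5, for which no transcript was found. Motifs were counted with Python 3.11.15 in RefSeq promoters. Alternatives were other pseudocounts and filters, each library left out, and TMM scaling. Length and GC trends, EB3-1 and EB3-2 averaged, and limma-voom on genes with a mean of at least 10 reads were also tried. All per-sample columns of the table were used.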

Additional observations from a re-analysis of the deposited data

How the results depend on the processing

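With the main settings 81 genes and 2 members were called. Leaving out each library in turn gave 6 to 694 genes and 0 to 3 members. The calls of Fkbp6 or Dazl were lost without A6, B8, C4, EB3-1 or EB3-2, as the values given beside them show, and both were kept without EB3-0. Averaging EB3-1 and EB3-2 left 6 genes and 0 members called, and using no filter on low values left 23 genes and 0 members. Removing the cDNA length trend gave 238 genes and 3 members (Syce1 was added), and removing length and GC trends gave 215 genes and 1 member, with Dazl at -0.70 and a limma adjusted p of 0.0689. Limma-voom on recovered reads gave 51 genes and 0 members. The last 2 settings were chosen after seeing the data, and the causes were not tested. Other pseudocounts, a filter at 0.1 RPKM and TMM scaling gave 77 to 81 genes and 2 members.

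Only Fkbp6 and Dazl were called with the main settings, so only their values could lose the threshold. Of 284 values of single members under the alternatives, 262 kept their direction and their side of the threshold. Another 16, all of them of Fkbp6 or Dazl, lost the threshold. A further 2 passed it (Syce1 with the length trend removed and Stra8 without EB3-0) and 4 changed sign. The latter were Tdrd12 (-0.34) and Rec8 (0.17) without B8, Prdm1 (0.04) without A6, and Sycp3 (0.21) with length and GC trends removed. Over the fits that left out 1 library, Tdrd12 ranged from -0.34 to 0.39, Rec8 from -0.54 to 0.17 and Prdm1 from -0.23 to 0.043. The count tests edgeR and DESeq2 had been planned and were not run, so that limma-voom was the only fit on recovered reads. No paired analysis was possible because the clones and the EB3 cultures share no replicate number.

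Depth limits the low members: 19 of the 38 lay under 1 RPKM on average, where 1 read in 2000 bases is worth 0.0177 to 0.0199 RPKM, so that few reads set their precision. Reads shared with near copies touch Mov10, Sycp1, Hormad1 and Tex19.1, and Tdrd5 was not compared.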
